A study of Mus musculus with 6 samples.

Results

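The genes described here code for the Slc25a carriers, the solute carrier family of the inner mitochondrial membrane. They were taken as all probe rows of the deposited count table whose gene symbol is Slc25a followed by a number. This gave 63 of 30146 probe rows and 46 of 21400 genes, with 1 probe row for 31 of the genes, 2 for 13 and 3 for 2. Pancreatic islets of 3 wild-type male C57Bl/6 mice were split by mouse between 2 arms and cultured for 48 h, 1 arm with 10 uM cisplatin and the other with the vehicle, 0.9% saline. This gave 3 cisplatin and 3 vehicle libraries. Both arms share the 48 h of culture after isolation, and no uncultured islets were analysed here. RNA was measured with TempO-Seq, in which paired detector oligonucleotides are ligated on their target RNA and counted, so each row reads 1 short stretch of a transcript and not its whole length.

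Slc25a proteins exchange metabolites across the inner mitochondrial membrane, which charged molecules hardly cross without a transport protein. The ADP/ATP carriers pass ADP in and ATP out, the phosphate carrier supplies phosphate for ATP synthesis, and other members move citrate, amino acids, nucleotides, iron or cofactors. In beta cells these exchanges stand between glucose metabolism and insulin release, since mitochondrial ATP closes the potassium channels that set the membrane potential and the aspartate/glutamate and citrate carriers link mitochondria to the cytosol. A few family members lie elsewhere, such as Slc25a17 in peroxisomes and Slc25a46 in the outer mitochondrial membrane.

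Cisplatin libraries held 1116916 to 1366829 counts and vehicle libraries 1470227 to 2272276. Beta cell markers were present in both arms, with 5 of 5 genes detected (Ins1, Ins2, Iapp, Mafa and Ucn3), and made up 4.54% to 11.9% of counts in cisplatin libraries and 11.7% to 17.8% in vehicle libraries. This share sums unlike members. Mafa had 631 cisplatin and 10325 vehicle counts, Ucn3 63 and 857 and Iapp 60122 and 270060. The Ins2 row of probe 29628 had 38495 and 24793 (log2 fold change 1.55, called higher). The more abundant Ins2 row, probe 70750, had 122173 and 181767 (0.39, not called), and probe 72175 of Ins1 had 128900 and 314389 (-0.26, not called). These are raw counts, and the cisplatin libraries were smaller. Alpha cell markers made up 0.535% to 1.13% with cisplatin and 1.92% to 5.44% with vehicle, delta cell markers 0.0861% to 0.248% and 0.147% to 0.361%, Ppy 0.0108% to 0.0568% and 0.0409% to 0.116%, and duct markers 0.0946% to 0.151% and 0.118% to 0.173%. Almost all duct counts came from Krt7, since Krt19 had 2 cisplatin and 8 vehicle counts and Sox9 had 7 and 0. All 4 immune markers and all 3 endothelial markers were detected, at 0.000627% to 0.00126% and 0.000585% to 0.000895% of cisplatin counts, against 0.00728% to 0.0194% and 0.00469% to 0.00836% of vehicle counts. Of 4 acinar markers, Prss2 and Pnlip had 0 counts and the list took at most 0.00152% of any library. In such bulk lysates fewer cells of a type and less RNA per cell cannot be told apart, and the part of these shifts in the Slc25a values was not tested. Mitochondrially encoded rows took 2.83%, 3.11% and 28.6% of the cisplatin libraries and 1.74%, 0.188% and 0.770% of the vehicle libraries, so cisplatin library 3 stood apart.

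RNA of 4 Slc25a genes was higher in cisplatin-treated islets than in vehicle islets, and no Slc25a row was called lower. The genes that rose were Slc25a25, an ATP-Mg/phosphate carrier, Slc25a51, the importer of NAD, Slc25a28, the iron importer mitoferrin 2, and Slc25a44, a carrier of branched-chain amino acids, each 2.44-fold to 3.18-fold. The ADP/ATP carriers, the phosphate carrier and the citrate carrier did not pass the test. Of the 63 rows, 26 rows of 20 genes had enough counts to be tested (a filter with a minimum count of 10). Rows were called where edgeR's quasi-likelihood test, with Benjamini-Hochberg adjustment over all tested rows, gave an adjusted p under 0.05. By this rule 5 of 26 tested Slc25a rows (19.2%) were higher, where 11.1% of all tested rows were, and 0 were lower, where 13.9% were. DESeq2 also called 5 higher and 0 lower, where it called 14% of all tested rows higher and 15% lower. At an unadjusted p under 0.05 in edgeR the numbers were 6 higher and 1 lower. The share of all tested rows at that unadjusted threshold was not counted. The median log2 fold change of the tested Slc25a rows was -0.18, beside -0.07 for all tested rows. Of the tested rows 12 lay above 0 and 14 below.

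The 5 calls depended on scaling libraries by more than their totals. Levels are given in CPM, counts scaled to a common library size, after TMM factors, which hold most rows level between libraries. With RLE factors, another scaling of this kind, the same 5 rows were called higher and 0 lower. Of all tested rows 11.7% were then higher and 13.4% lower. With library totals alone, a scale that moved the median of all rows to -0.54, 0 Slc25a rows were higher and 2 of 26 (7.69%) were lower, where 4.89% of all tested rows were higher and 21.6% lower. On that scale the 5 rows called higher stayed above 0, at 0.78 to 1.26, with adjusted p = 0.0637 to 0.213.

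**Figure D1:**
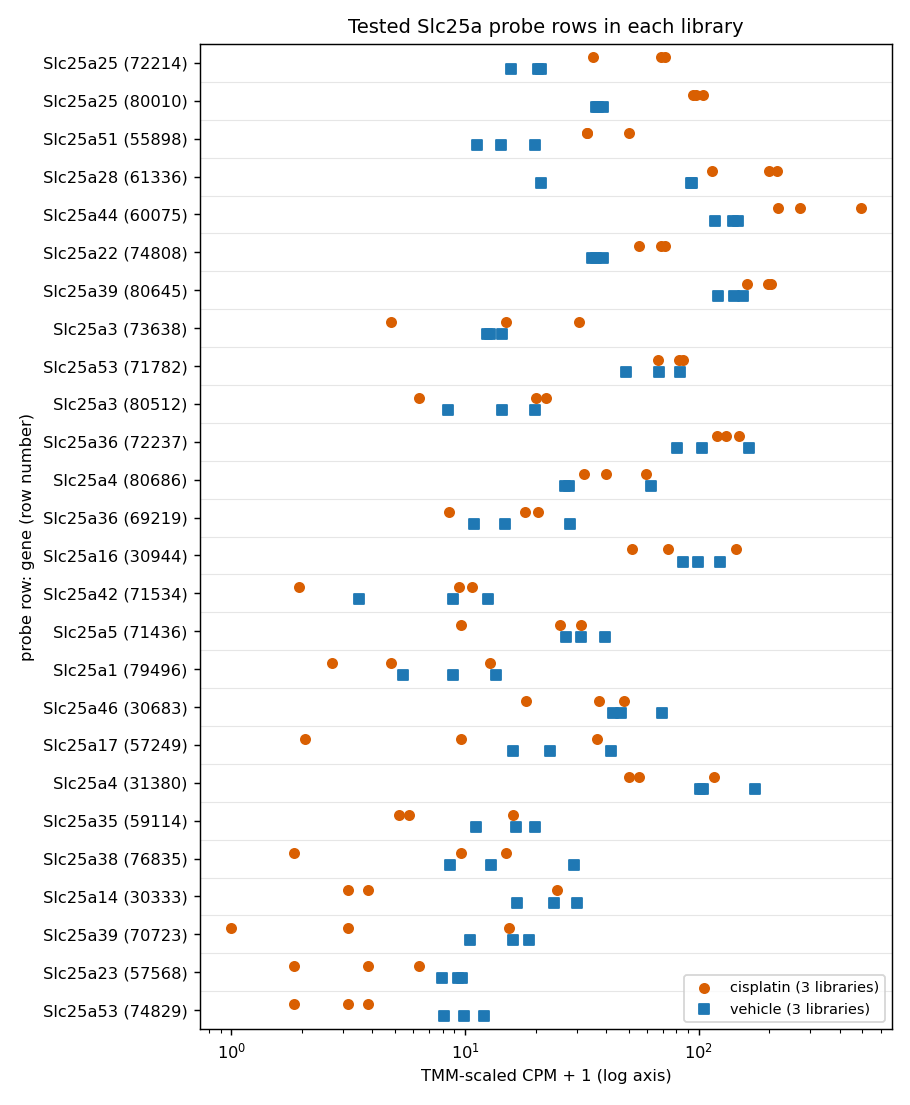
Each tested Slc25a probe row is drawn on a line of its own, ordered by its log2 fold change, with its TMM-scaled CPM plus 1 on a logarithmic axis in the 3 cisplatin libraries (circles) and the 3 vehicle libraries (squares). In the upper 7 rows all cisplatin circles lie right of all vehicle squares, and in the lowest pair of rows they all lie left of them.

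Promoter windows are shown for the 2 of 4 called genes that have one in the RefSeq table for GRCm38.p6, and for Slc25a36, a pyrimidine nucleotide carrier that was not called but shares a motif with Slc25a25. RefSeq gives Slc25a25 3 start sites, which is why it has 3 windows. Each window runs from 250 bases before a start to 50 bases after it, read 5′ to 3′ on the gene's strand, here the minus strand throughout. They lie at chr2:32451421-32451720, chr2:32431102-32431401 and chr2:32424017-32424316 for Slc25a25, at chr19:43674832-43675131 for Slc25a28 and at chr9:97110992-97111291 for Slc25a36. Capitals mark the GC box GGGCGG, bound by Sp factors, and the cAMP response element TGACGTCA, on either strand.
Slc25a25 window 1: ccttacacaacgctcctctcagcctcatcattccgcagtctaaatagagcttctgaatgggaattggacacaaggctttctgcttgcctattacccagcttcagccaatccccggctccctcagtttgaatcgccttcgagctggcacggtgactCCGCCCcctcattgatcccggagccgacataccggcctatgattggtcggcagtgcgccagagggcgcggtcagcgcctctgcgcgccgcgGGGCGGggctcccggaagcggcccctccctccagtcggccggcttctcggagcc
Slc25a25 window 2: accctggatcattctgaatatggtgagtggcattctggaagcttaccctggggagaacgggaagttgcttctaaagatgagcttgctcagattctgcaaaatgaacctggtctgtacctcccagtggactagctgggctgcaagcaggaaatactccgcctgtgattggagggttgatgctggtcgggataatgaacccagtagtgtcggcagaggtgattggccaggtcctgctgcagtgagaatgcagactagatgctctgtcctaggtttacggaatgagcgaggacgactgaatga
Slc25a25 window 3: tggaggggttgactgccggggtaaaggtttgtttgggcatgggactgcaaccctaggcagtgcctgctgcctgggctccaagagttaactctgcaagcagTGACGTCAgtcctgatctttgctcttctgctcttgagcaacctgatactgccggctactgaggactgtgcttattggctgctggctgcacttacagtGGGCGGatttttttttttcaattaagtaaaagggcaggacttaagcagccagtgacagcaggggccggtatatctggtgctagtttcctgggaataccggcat
Slc25a28: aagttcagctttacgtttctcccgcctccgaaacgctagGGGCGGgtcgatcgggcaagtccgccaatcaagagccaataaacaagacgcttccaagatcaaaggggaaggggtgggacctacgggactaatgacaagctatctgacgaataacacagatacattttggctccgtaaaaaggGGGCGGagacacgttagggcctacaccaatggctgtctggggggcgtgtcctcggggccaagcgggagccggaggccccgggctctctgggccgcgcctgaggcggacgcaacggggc
Slc25a36: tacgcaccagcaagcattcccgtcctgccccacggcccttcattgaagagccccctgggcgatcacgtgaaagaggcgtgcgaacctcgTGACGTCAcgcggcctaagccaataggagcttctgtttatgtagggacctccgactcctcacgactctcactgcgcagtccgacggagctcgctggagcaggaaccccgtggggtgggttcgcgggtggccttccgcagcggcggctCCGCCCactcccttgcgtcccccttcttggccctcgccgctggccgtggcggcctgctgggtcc

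The full cAMP response element TGACGTCA was found in 2 of the 45 windows of 35 Slc25a genes, namely window 3 of Slc25a25, at -150 from the start, and Slc25a36, at -161. It was present in 2.23% of 21263 windows of protein-coding genes. The GC box GGGCGG was found in 37 of the 45 Slc25a windows (82.2%), against 46.2% of protein-coding windows, and it was absent from window 2 of Slc25a25. The AP-1 motif TGANTCA was in 4.44% of Slc25a windows and 6.99% of protein-coding ones. Both strands were searched, and none of these 3 motifs lies inside another. Windows of 1 gene can overlap, so they are not independent. Of the pair that holds the element, Slc25a25 was called and Slc25a36 was not (0.20 ± 0.32 for its probe 72237).

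The carriers of phosphate and of ATP-Mg include the row with the smallest adjusted p of the family. Probe 80010 of Slc25a25, a carrier activated by calcium that sets the adenine nucleotide pool of the matrix, had 93.0, 96.0 and 103 CPM in cisplatin libraries, against 35.2, 36.0 and 37.8 CPM in vehicle libraries. All cisplatin values were well above all vehicle values, with little spread inside either arm. Its log2 fold change was 1.42 ± 0.31 (SE, n = 3 each), with an adjusted p of 0.00515 in edgeR, and it was 1.37, 1.39 and 1.42 in the 3 mouse pairs. It was called without any single library (edgeR adjusted p = 0.00431 to 0.0367).

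The other Slc25a25 row, probe 72214, had 67.7, 70.4 and 34.3 CPM with cisplatin and 14.6, 19.6 and 20.1 CPM with vehicle. The arms did not overlap, with cisplatin library 3 the lowest of its arm. Its log2 fold change was 1.67 ± 0.42 (edgeR adjusted p = 0.01), and leaving out vehicle library 1 ended the call (1.56, adjusted p = 0.0646). In raw counts probe 80010 had 110, 101 and 96 reads with cisplatin, against 89, 57 and 96 with vehicle, although every cisplatin library was smaller than its vehicle partner.

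Slc25a3, the phosphate carrier of the inner membrane, was measured by 2 tested rows that were not called (0.38 ± 0.67 and 0.22 ± 0.64). Probe 73638 had 29.6, 3.80 and 13.9 CPM with cisplatin and 13.4, 11.4 and 11.8 CPM with vehicle, so the cisplatin arm spread on both sides of the vehicle arm. Slc25a23, a further ATP-Mg/phosphate carrier, had 0.846, 2.85 and 5.36 CPM with cisplatin and 8.30, 6.95 and 8.66 CPM with vehicle. Its arms did not overlap, yet it was not called (-1.42 ± 0.90, edgeR adjusted p = 0.274), with 9 cisplatin counts in all. Slc25a24, of the same group, was too sparse to test, with 8 cisplatin and 47 vehicle counts.

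Among carriers of amino acids, Slc25a44, which brings branched-chain amino acids into mitochondria, rose. It had 270, 218 and 492 CPM with cisplatin and 116, 138 and 146 CPM with vehicle. The arms did not overlap, and cisplatin library 3, the one with most mitochondrially encoded counts, was the highest. The log2 fold change was 1.29 ± 0.32 (edgeR adjusted p = 0.0107). It was 0.88 and still called without cisplatin library 3 (adjusted p = 0.0392), and leaving out vehicle library 1 ended the call (1.26, adjusted p = 0.0741).

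Slc25a22, a mitochondrial glutamate carrier, had 67.7, 54.2 and 70.8 CPM with cisplatin and 34.0, 35.4 and 37.8 CPM with vehicle (probe 74808). All cisplatin values were above all vehicle values, but the difference of 0.84 ± 0.34 did not pass the adjusted threshold (edgeR adjusted p = 0.0819). Slc25a38, which carries glycine for haem synthesis, had 0.846, 8.56 and 13.9 CPM with cisplatin and 11.9, 7.58 and 28.3 CPM with vehicle for probe 76835 (-1.07 ± 0.81), and the arms overlapped. The aspartate/glutamate carriers of the malate-aspartate shuttle were too sparse to test. Slc25a12 had 0 counts in all cisplatin libraries and 14, 22 and 3 counts in vehicle libraries. With the cisplatin arm set to a floor of 3 counts, it was 6.19-fold lower. Such a floor takes the counts of the other arm as exact, so the fold is not a lower bound. Probe 78370 of Slc25a13 had 1 cisplatin count and 27 vehicle counts, a ratio of vehicle over cisplatin of 12.9 (95% counting interval 2.12 to 526). The second Slc25a13 row, probe 29322, had 6 and 15 counts. Such floors and intervals leave out the spread between mice. They may also understate counting error, because reads of 1 amplified molecule are not independent.

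Slc25a51, the NAD carrier, had 49.1, 32.3 and 32.2 CPM with cisplatin and 10.3, 13.3 and 18.9 CPM with vehicle. Every cisplatin library exceeded every vehicle library. Its log2 fold change was 1.42 ± 0.46 (edgeR adjusted p = 0.0362). With the mouse as a block it was not called (1.43, edgeR adjusted p = 0.0635). It was also not called with no filter (adjusted p = 0.125) or when any single library other than cisplatin library 3 was left out (adjusted p = 0.0525 to 0.166).

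Of the other carriers of nucleotides and cofactors none was called. They include Slc25a36 and Slc25a16, a carrier linked to coenzyme A. Slc25a36 had 118, 147 and 130 CPM with cisplatin and 79.5, 164 and 102 CPM with vehicle for probe 72237, and the cisplatin values lay inside the vehicle range. Slc25a16 had 50.7, 143 and 72.9 CPM with cisplatin and 84.6, 122 and 97.6 CPM with vehicle (-0.19 ± 0.38), the cisplatin arm again spreading around the vehicle arm. Slc25a42, a coenzyme A carrier, had 8.46, 0.951 and 9.65 CPM with cisplatin and 11.5, 2.53 and 7.87 CPM with vehicle (-0.22 ± 0.90). Its second library was low in both arms. Slc25a17, the peroxisomal cofactor carrier, had 35.5, 8.56 and 1.07 CPM with cisplatin and 22.1, 41.0 and 15.0 CPM with vehicle (-0.75 ± 0.77). Cisplatin library 1 was high for Slc25a17, and without it the row was called lower (-2.29, edgeR adjusted p = 0.0306).

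Of the iron and glutathione carriers, Slc25a28 rose. Mitoferrin 2 feeds iron into mitochondria for haem and iron-sulphur clusters. It had 113, 215 and 198 CPM with cisplatin and 92.1, 20.2 and 91.7 CPM with vehicle, so vehicle library 2 was far below the other two vehicle libraries. The log2 fold change was 1.35 ± 0.46 (edgeR adjusted p = 0.0464), and the difference was 0.29, 3.33 and 1.103 in the 3 mouse pairs. The call was kept only without cisplatin library 1. Without any other single library it was lost (adjusted p = 0.0602 to 0.144), and without vehicle library 2 the value was 0.92. Thinned to the smallest library it was also not called (1.27, adjusted p = 0.0516).

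Slc25a39, which imports glutathione, gave unlike values in its 2 tested rows. Probe 80645 had 202, 160 and 197 CPM with cisplatin and 153, 120 and 140 CPM with vehicle, and the arms did not overlap, but it was not called (0.44 ± 0.27, edgeR adjusted p = 0.256). Probe 70723 had 14.4, 0 and 2.15 CPM with cisplatin and 9.49, 17.7 and 15.0 CPM with vehicle (-1.29 ± 0.93). Without cisplatin library 1, the highest of its arm, probe 70723 was called lower (-3.59, edgeR adjusted p = 0.0177). Mitoferrin 1, Slc25a37, had 5 cisplatin counts, all in library 3, and 1 vehicle count, a scaled ratio of cisplatin over vehicle of 10.5 (95% counting interval 1.18 to 497). Slc25a40, a relative of Slc25a39, had 18 and 36 counts (6.11 and 4.97 mean CPM). Slc25a37 and Slc25a40 had too few counts to test.

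The ADP/ATP carriers, which supply the cytosol with mitochondrial ATP, gave no call. Probe 31380 of Slc25a4, the ADP/ATP carrier named ANT1, had 49.1, 54.2 and 115 CPM with cisplatin and 100, 172 and 104 CPM with vehicle. Cisplatin libraries 1 and 2 were below all vehicle libraries, while cisplatin library 3 lay within the vehicle range. The log2 fold change was -0.79 ± 0.38 (edgeR adjusted p = 0.148). Without cisplatin library 3 the row was called lower (-1.26, adjusted p = 0.0328), as it was with library totals alone (-1.31, adjusted p = 0.0146).

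The second Slc25a4 row, probe 80686, was at 0.19 ± 0.44 with 58.4, 39.0 and 31.1 CPM with cisplatin and 25.7, 61.2 and 26.8 CPM with vehicle. The ratio of counts of probe 31380 to probe 80686, which needs no scaling, was 0.841, 1.39 and 3.69 with cisplatin and 3.89, 2.81 and 3.87 with vehicle. Cisplatin libraries 1 and 2 thus had fewer counts of probe 31380 per count of probe 80686 than any vehicle library. Probe positions were not available, and why the 2 rows differed was not tested. Slc25a5, the ADP/ATP carrier named ANT2, had 24.5, 30.4 and 8.58 CPM with cisplatin and 26.1, 38.5 and 30.3 CPM with vehicle (-0.56 ± 0.49), and its arms overlapped. Slc25a31, the ADP/ATP carrier best known from testis, had 3 cisplatin and 24 vehicle counts over both rows. Its probe 30606 had 0 and 18, 2.86-fold lower against the floor.

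The citrate carrier Slc25a1, which exports citrate for lipid synthesis, had 1.69, 3.80 and 11.8 CPM with cisplatin and 7.91, 4.42 and 12.6 CPM with vehicle. These overlapped widely (-0.57 ± 0.87). The dicarboxylate carrier Slc25a10 and the oxoglutarate carrier Slc25a11 had 6 and 7 counts with cisplatin and 2 and 7 with vehicle. The scaled ratio of cisplatin over vehicle was 6.30 for Slc25a10 (95% counting interval 1.13 to 63.9), and neither row was tested.

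Slc25a46, an outer membrane protein that acts in mitochondrial dynamics, had 36.4, 46.6 and 17.2 CPM with cisplatin and 45.5, 68.2 and 41.7 CPM with vehicle. It was not called (-0.62 ± 0.42). Slc25a14, a relative of the uncoupling proteins, had 23.7, 2.85 and 2.15 CPM with cisplatin and 22.9, 29.0 and 15.7 CPM with vehicle for probe 30333. Cisplatin libraries 2 and 3 were below all vehicle libraries and cisplatin library 1 was not. Its value was -1.19 ± 0.75, and without cisplatin library 1 it was called lower (-3.03, edgeR adjusted p = 0.00579).

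The less well known Slc25a53 differed between its 2 rows. Probe 71782 had 84.6, 65.6 and 81.5 CPM with cisplatin and 66.8, 48.0 and 81.9 CPM with vehicle (0.23 ± 0.33). Probe 74829 had 0.846, 2.85 and 2.15 CPM with cisplatin and 7.12, 8.84 and 11.02 CPM with vehicle, without overlap, but was not called (-2.19 ± 0.91, edgeR adjusted p = 0.0939). The ratio of probe 71782 to probe 74829 was 100, 23 and 38 with cisplatin and 9.39, 5.43 and 7.43 with vehicle, so it was higher in every cisplatin library, although each cisplatin ratio rests on at most 3 counts of probe 74829. Slc25a35, a member of unsettled substrate, had 4.23, 4.75 and 15.0 CPM with cisplatin and 15.4, 10.1 and 18.9 CPM with vehicle (-0.91 ± 0.69), with overlap.

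Over the tested rows, arms without overlap were seen for 7 rows above (26.9%, against 19.1% of all tested rows) and 2 rows below (7.69%, against 24.3%). Of 6 genes with 2 tested rows, both rows were called for Slc25a25 and neither for Slc25a3, Slc25a36, Slc25a39, Slc25a4 and Slc25a53. The rows of Slc25a36, Slc25a39, Slc25a4 and Slc25a53 had log2 fold changes of opposite sign. A second row of Slc25a36, probe 69219, was at -0.18 ± 0.60.

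**Figure D2:**
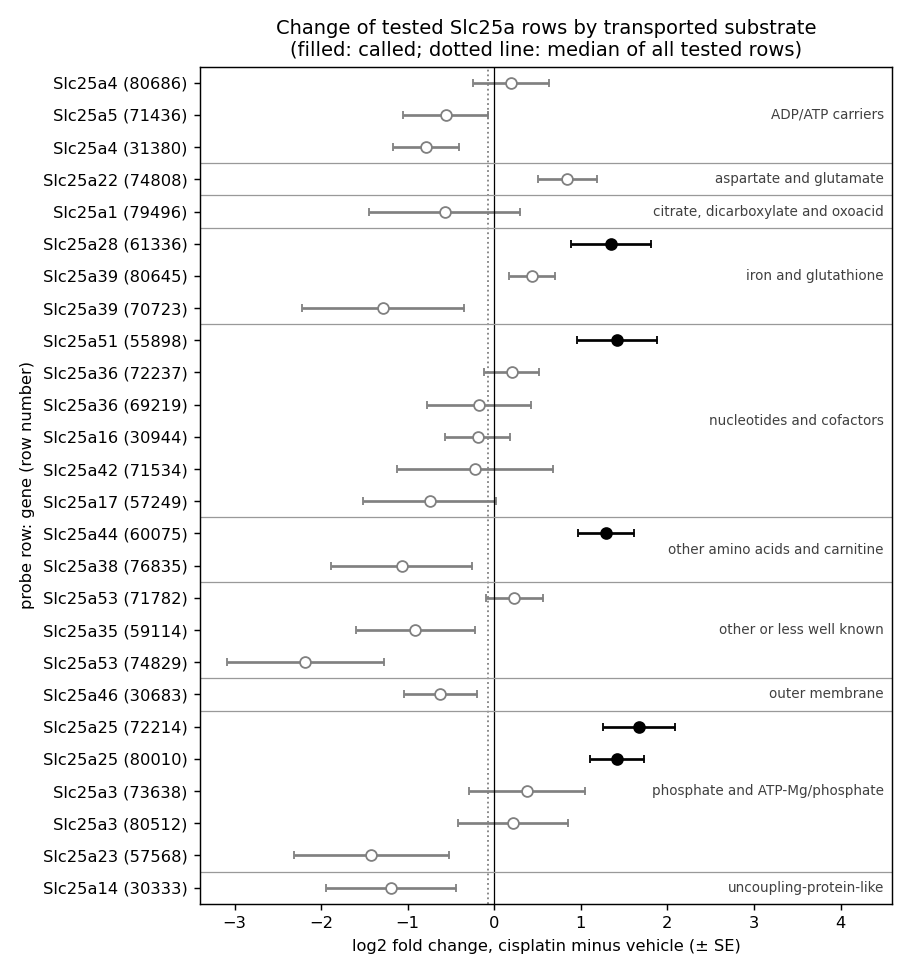
Log2 fold changes (cisplatin minus vehicle) of the 26 tested Slc25a rows are drawn with their SE, grouped by what the carriers transport, filled where called. The 5 filled points lie between 1.29 and 1.67, in 4 of the 10 groups, and no filled point lies left of 0.

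The make-up of the Slc25a counts within a library is free of any scaling between libraries. Slc25a44 took 17.9%, 14.4% and 28.1% of all Slc25a counts in cisplatin libraries and 10.5%, 10.4% and 12.1% in vehicle libraries, so all cisplatin shares were above all vehicle shares. Probe 80010 of Slc25a25 took 6.18%, 6.33% and 5.88% with cisplatin and 3.18%, 2.72% and 3.13% with vehicle. Both rows of Slc25a25, Slc25a44, Slc25a51 and Slc25a22 were above the vehicle range in all cisplatin libraries. Probe 31380 of Slc25a4 took 3.26%, 3.57% and 6.56% with cisplatin and 9.03%, 13.0% and 8.58% with vehicle, without overlap. Slc25a5 and Slc25a46 were likewise below the vehicle range, at 1.38% ± 0.79 and 2.16% ± 1.07 with cisplatin and 2.59% ± 0.28 and 4.24% ± 0.85 with vehicle (SD, n = 3). So were 2 sparse rows, Slc25a23 (0.184% with cisplatin and 0.664% with vehicle on average) and probe 74829 of Slc25a53 (0.122% and 0.741%). The share of Slc25a28 overlapped between arms, at 7.48%, 14.2% and 11.3% with cisplatin and 8.32%, 1.53% and 7.60% with vehicle. These shares sum to a fixed total, so a rise of some rows lowers the others.

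**Figure D3:**
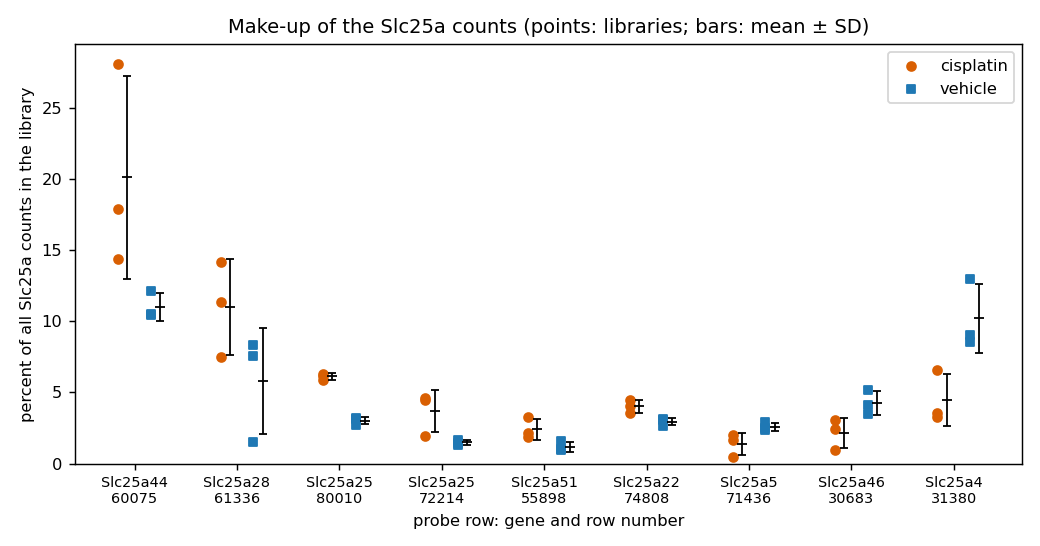
Shares of all Slc25a counts in a library, in percent, are plotted for 9 tested rows in the 3 cisplatin libraries (circles) and the 3 vehicle libraries (squares), with the mean and SD beside them. Slc25a44 averaged 20.1% with cisplatin and 11.02% with vehicle, and probe 31380 of Slc25a4 averaged 4.46% and 10.2%.

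All 63 rows together made up 0.132% ± 0.023 of a cisplatin library and 0.139% ± 0.004 of a vehicle library (SD, n = 3 each). The cisplatin libraries held 0.159%, 0.118% and 0.119% and the vehicle libraries 0.140%, 0.143% and 0.135%, so cisplatin values fell on both sides of the vehicle range. After TMM scaling the sum was 1504, 1516 and 1750 CPM with cisplatin and 1108, 1325 and 1207 CPM with vehicle, without overlap. Whether the summed counts of the family were level or higher therefore followed the scale. The scaled sum, 1590 and 1213 CPM on average, is weighted to abundant rows. Slc25a44 averaged 327 CPM with cisplatin and 134 with vehicle, Slc25a28 175 and 68, and probe 31380 of Slc25a4 72.7 and 125. Of the tested rows 12 lay above 0 and 14 below, with a median of -0.18, so the sum does not describe most rows. Without mitochondrially encoded rows the share was 0.164%, 0.122% and 0.167% with cisplatin (mean 0.151%) and 0.143%, 0.143% and 0.136% with vehicle (mean 0.141%). Cisplatin library 2 lay below all vehicle libraries, so the arms overlapped.

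**Figure D4:**
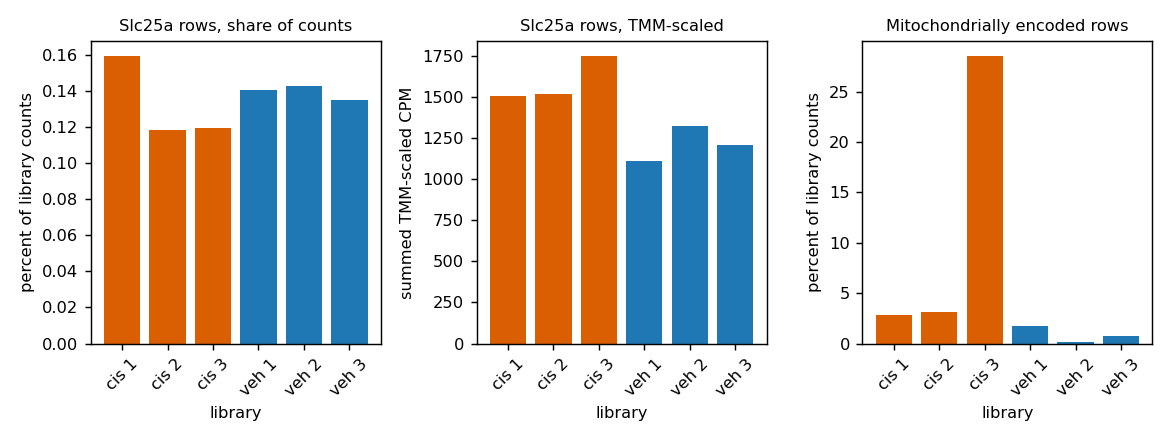
Bars give, for each cisplatin (left) and vehicle (right) library, the share of counts in Slc25a rows in percent, their summed TMM-scaled CPM, and the share of counts in mitochondrially encoded rows in percent. The Slc25a share overlaps between arms, the scaled sum does not, and the mitochondrially encoded share is 28.6% in cisplatin library 3.

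A total of 26 Slc25a genes had no tested row. Of these Slc25a33, Slc25a41, Slc25a43 and Slc25a48 had 0 counts in all 6 libraries. Slc25a32, a carrier of flavin and folate, had 30 cisplatin and 25 vehicle counts. Slc25a15, the ornithine carrier, had 13 and 28. Slc25a29, a carrier of basic amino acids, had 2 and 19, a ratio of vehicle over cisplatin of 4.52 (95% counting interval 1.09 to 40.0). Slc25a20, the carnitine-acylcarnitine carrier, had 3 and 4. The S-adenosylmethionine carrier Slc25a26 had 0 and 7, and the oxodicarboxylate carrier Slc25a21 had 0 and 5. Slc25a54 had 0 and 3, Slc25a45 had 3 and 3, and Slc25a47 had 3 and 4. Slc25a34 had 9 and 3, a scaled ratio of cisplatin over vehicle of 6.30 (95% counting interval 1.57 to 36.2). Slc25a27, known as UCP4, had 6 and 0, 4.202-fold higher against the floor of 3 counts over the vehicle arm, with all 6 in cisplatin library 3. The glutamate carrier Slc25a18 and the basic amino acid carrier Slc25a2 each had 4 and 0, 2.80-fold higher against the same floor. All 4 counts of Slc25a2 were in cisplatin library 1. Further untested rows belong to genes with a tested row. Of these, probe 78583 of Slc25a14 had 4 cisplatin and 41 vehicle counts, probe 64615 of Slc25a38 had 5 and 18, probe 70276 of Slc25a46 had 14 and 31, and probe 77404 of Slc25a22 had 28 and 32. Probe 67330 of Slc25a14 had 11 and 12, and probe 72052 of Slc25a22 had 3 and 6. None of these genes and rows had enough counts to be tested, and the ratios and floors say nothing of the spread between mice. With no filter 1 of them, Slc25a12, was called lower (edgeR adjusted p = 0.0268), in a fit that called 5.84% of all its rows lower.

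Genes that work with the carriers were set beside them. Family members with other symbols gave 0 calls among 4 tested rows. Ucp2, the uncoupling protein of beta cells, had 22.8, 22.8 and 38.6 CPM with cisplatin and 49.8, 32.2 and 44.1 CPM with vehicle (-0.59 ± 0.41). Mtch1, an outer membrane relative of the carriers, was at -0.12 ± 0.30. The carrier import machinery passes new carriers through the outer membrane and inserts them into the inner membrane. Of its 12 tested rows 2 were called higher and 0 lower, with a median of 0.74 (all tested rows: 11.1% higher, 13.9% lower, median -0.07). With the mouse as a block 3 were higher and 1 lower (all tested rows: 10.2% and 13.2%). Called without the block were Tomm6 (386 ± 85.8 CPM with cisplatin and 200 ± 35.3 with vehicle, 0.95 ± 0.28) and Tomm22 (232 ± 36.7 and 131 ± 11.2 CPM, 0.82 ± 0.27), both parts of the outer membrane translocase. Neither was called on the scale of library totals, in the unfiltered fit, or once cisplatin library 3 or any 1 of the vehicle libraries was left out (adjusted p = 0.0527 to 0.457), and Tomm22 also without cisplatin library 1 (adjusted p = 0.0734).

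Of other transporters and channels of mitochondrial membranes, 1 of 19 tested rows was called higher and 3 lower, with a median of -0.43. Of all tested rows 11.1% were higher and 13.9% lower, so the list's share lower is near that of all rows. The 3 lower rows belong to 1 gene. The row that rose was Sfxn3, a sideroflexin that can carry serine, with 56.7, 53.2 and 19.3 CPM with cisplatin and 10.7, 12.6 and 7.08 CPM with vehicle (2.10 ± 0.52). Leaving out vehicle library 3 ended the call of Sfxn3 (adjusted p = 0.0604). Vdac1, the outer membrane channel for metabolites, was at 0.01 ± 0.30 and Smdt1, a subunit of the mitochondrial calcium uniporter, at 0.20 ± 0.36.

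Of the enzymes that use what the carriers move, 1 of 6 tested rows was called higher and 2 lower, with a median of -0.36, against the same 11.1% and 13.9% of all tested rows. Both rows of Acly fell, the enzyme that splits the citrate brought out by Slc25a1. Its probe 29936 had 401, 552 and 637 CPM with cisplatin and 2285, 1971 and 2942 CPM with vehicle (-2.18 ± 0.31, edgeR adjusted p = 0.000276), and probe 31877 was at -2.08 ± 0.42. Mdh2, the mitochondrial malate dehydrogenase, had 67.7, 52.3 and 50.4 CPM with cisplatin and 8.30, 25.9 and 20.9 CPM with vehicle (1.64 ± 0.45). Mdh2 lost its call without vehicle library 1 or 3 (adjusted p = 0.0908 and 0.0566) or with library totals alone (adjusted p = 0.0736). Gpd1, of the glycerol phosphate shuttle, was not called (0.72 ± 0.28, edgeR adjusted p = 0.0766), though it was by DESeq2 (adjusted p = 0.0478).

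**Figure D5:**
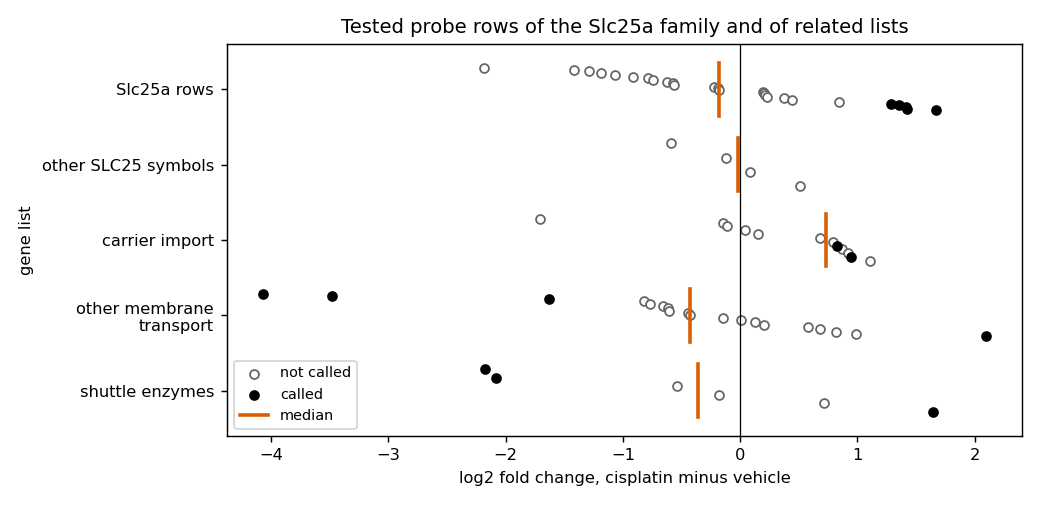
Log2 fold changes (cisplatin minus vehicle) of tested rows are shown for the Slc25a family and the 4 related lists, filled where called, with each list's median as a vertical bar. Slc25a points run from -2.19 to 1.67 around a median of -0.18.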

How the data were processed

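TempO-Seq libraries of cisplatin-treated and vehicle-treated islets were made with the mouse whole transcriptome panel v1.1, per the labels' protocols. The authors deposited counts, whole numbers per probe row and library, with no normalization. Per the submitters' processing notes, DESeq2 1.44.0, STAR 2.7.10b and fastp 0.23.2 were used, in roles not stated. The genome build is not given in the sources used here, nor is the handling of reads that fit near-identical genes.

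Counts were analysed in R 4.3.3 with edgeR 4.0.16 and limma 3.58.1. Of all rows, 9381 passed edgeR's expression filter (minimum count 10), and after TMM scaling edgeR's robust quasi-likelihood F-test was run, two-sided, with treatment as its single term. Adjustment was by Benjamini-Hochberg over all 9381 rows, and each SE was derived from its F statistic. P-values measure the spread between 3 libraries per arm. Probes differ in efficiency, so levels of different probes were not read as relative amounts of RNA. Shares, sums and ratios over probes carry that difference and were compared between libraries. A probe number is the number in its row name.

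Labels name the animal of each library, which pairs the libraries by mouse. Deviations from arm means correlated at -0.116, 0.0336 and 0.219 in the 3 mouse pairs and at -0.227 to 0.168 between mice. The mouse was a block in an alternative fit, since no source states that the authors used one. Other alternatives were RLE factors, library totals alone, no filter, DESeq2 1.42.0, probes summed per gene, thinning to the smallest library, no mitochondrially encoded rows, and each library left out. No 2 libraries agreed within sampling noise.

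Members, role groups and related lists were chosen with earlier results of these data known. Called Slc25a rows and the most abundant tested row of each gene are given with values, others by range or counts. Of related lists, called members and the 2 most abundant are named. Some items that this rule takes are not reported here, while counts over lists include them. Slc25a30 was listed but has no row in the table.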

Additional observations from a re-analysis of the deposited data

How the results depend on the processing

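With library totals alone 0 Slc25a rows were higher and 2 lower (Slc25a4 probe 31380 and Slc25a53 probe 74829), the median of tested Slc25a rows was -0.63, and 1 related row was higher. Of all tested rows 4.89% were higher and 21.6% lower on that scale. With no filter 1 of 58 Slc25a rows was lower (Slc25a12, with 0 cisplatin counts, edgeR adjusted p = 0.0268) and 2 related rows were higher. That fit called 3.58% of all its rows higher and 5.84% lower. DESeq2 called 7 related rows higher, and 14% of all tested rows. Thinning gave 3 related rows lower and a Slc25a median of 0.15, and summing probes gave 2 related genes lower, where fewer rows are counted. Of all tested rows 14.5% were lower after thinning, and of all tested genes 15.6% with probes summed. With the mouse as a replicate block 4 Slc25a rows were higher, without Slc25a51 (adjusted p = 0.0635), and 0 were lower, and no other Slc25a call changed. The block fit called 10.2% of all tested rows higher and 13.2% lower. Leaving out single libraries gave 1 to 4 Slc25a rows higher (1 without vehicle library 1), 0 to 3 lower (3 without cisplatin library 1), a median of -0.34 to 0.14, 0 to 5 related rows higher and 3 to 6 lower. Tested Slc25a rows numbered 26 to 33, and 5.05% to 12% of all tested rows were higher and 5.82% to 12.5% lower. Without vehicle library 1 it was 5.05% of all tested rows that were higher, and without cisplatin library 1 12.5% were lower. The Slc25a share stayed within 1 SD of 0.132% (cisplatin) and 0.139% (vehicle), at 0.119% to 0.139% and 0.138% to 0.142% without single libraries.

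Sign changes were seen in uncalled rows. With library totals alone these were Slc25a4 probe 80686 (-0.18), Slc25a39 probe 80645 (-0.026), Slc25a36 probe 72237 (-0.26), Slc25a53 probe 71782 (-0.23), Slc25a3 probe 80512 (-0.17), Smdt1 (-0.35) and Vdac1 (-0.38). Vdac1 was also at -0.005 with the block and -0.099 with no filter, and Smdt1 at -0.13 with probes summed. Leaving out single libraries gave -0.032 to 0.697 for Slc25a4 probe 80686, -0.719 to 0.18 for Slc25a16, -0.437 to 0.31 for Slc25a36 probe 69219, -0.621 to 0.32 for Slc25a42, -0.37 to 0.831 for Slc25a3 probe 73638, -0.11 to 0.62 for Slc25a3 probe 80512, -0.372 to 0.027 for Mtch1, -0.21 to 0.527 for Smdt1 and -0.16 to 0.181 for Vdac1. The cause of these changes was not tested. Over all alternatives, 466 log2 fold changes of single rows kept direction and side of the threshold, 43 lost a call, 8 gained one and 28 changed sign. Depth limits the 26 genes with no tested row.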
